A study of Sus scrofa with 12 samples.

Results

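The genes described here are the 4 classical major histocompatibility complex (MHC) class II genes of the pig that the array names, SLA-DRA, SLA-DRB1, SLA-DQA1 and SLA-DQB1. They were taken as every probe set whose annotation gives 1 of these symbols and no other, which yielded 6 of the 24123 probe sets and 4 of the 6765 named genes on the array. Of the 6, 4 passed a filter on low signals, 1 for each gene, and the other 2 belong to SLA-DRB1. Class II molecules are pairs of an alpha and a beta chain that bind peptides from engulfed material and show them at the cell surface to helper T cells. Dendritic cells, macrophages and B cells are among the cells that carry them at rest, and interferon gamma can raise them on endothelial and smooth muscle cells through the activator CIITA. SLA-DRA and SLA-DRB1 encode the chains of the DR molecule, and SLA-DQA1 and SLA-DQB1 those of the DQ molecule.

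The samples are total RNA of coronary artery tissue of Yorkshire farm pigs that received angioplasty and a stent and were studied at day 28. The stents eluted zotarolimus (ZES) or sirolimus (SES), or were bare metal (BMS). Each stent type had 4 arrays from 2 pigs, called pig A (arrays 1 and 2) and pig B (arrays 3 and 4). One array of each pig came from the left anterior descending artery (LAD) and 1 from the right coronary artery (RCA), except that SES pig A gave a left circumflex segment (LCX, array SES 1) beside its RCA segment. The LAD arrays are ZES 2, ZES 4, SES 4, BMS 2 and BMS 4, and all others but SES 1 are RCA. Sirolimus inhibits the growth kinase mTOR, and zotarolimus is its analog, in which a tetrazole replaces a hydroxyl group. The sources used here do not give the amounts of drug on the stents or the animals' ages. Every pig had a stent in both segments, so no artery without a stent was compared, and the 2 segments of a pig are not separate animals. Values are log2 signals, on which a difference of 1 is a doubling, and levels are compared only within a probe set.

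The arrays differed in technical measures as well as in stent type. The mean signal of the spiked-in controls lay between 14.60 and 15.91 on ZES arrays, between 14.62 and 15.60 on SES arrays, and between 15.74 and 16.52 on BMS arrays. The excess of the 3′ over the 5′ GAPDH control probe set, which grows as RNA is degraded or incompletely copied, was 3.44 to 3.91 with ZES, 2.33 to 3.02 with SES and 3.64 to 4.63 with BMS. No SES array reached the lowest BMS array in either measure. A control probe set for 28S ribosomal RNA stood at 14.10 on ZES 2 and 14.57 on BMS 1, against at most 10.74 on the other arrays. The background, set for each array from its control probe sets, was 4.19 to 5.16 with ZES, 4.15 to 5.39 with SES and 5.27 to 5.96 with BMS. The same signal thus counts as above background less readily on most BMS arrays. Of the vessel wall markers, 10 of 11 of smooth muscle and 4 of 11 of endothelium (PECAM1, TEK, ERG and ENG) were above background on all 12 arrays. MYLK of smooth muscle was so on 8, and the other 7 endothelial markers on 5 (EGFL7) to 11 (ESAM), with VWF on 9.

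SLA-DRB1 and SLA-DQA1 rose in SES segments relative to BMS segments, and the other 2 class II genes were higher by like amounts without passing the threshold. SLA-DRB1 was 4.44-fold higher and SLA-DQA1 3.55-fold higher with SES than with BMS. All 4 genes had their highest mean with SES, the next with ZES and the lowest with BMS. For the neighbours in that order, ZES and BMS or SES and ZES, no difference of the 4 genes passed the test.

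**Figure D1:**
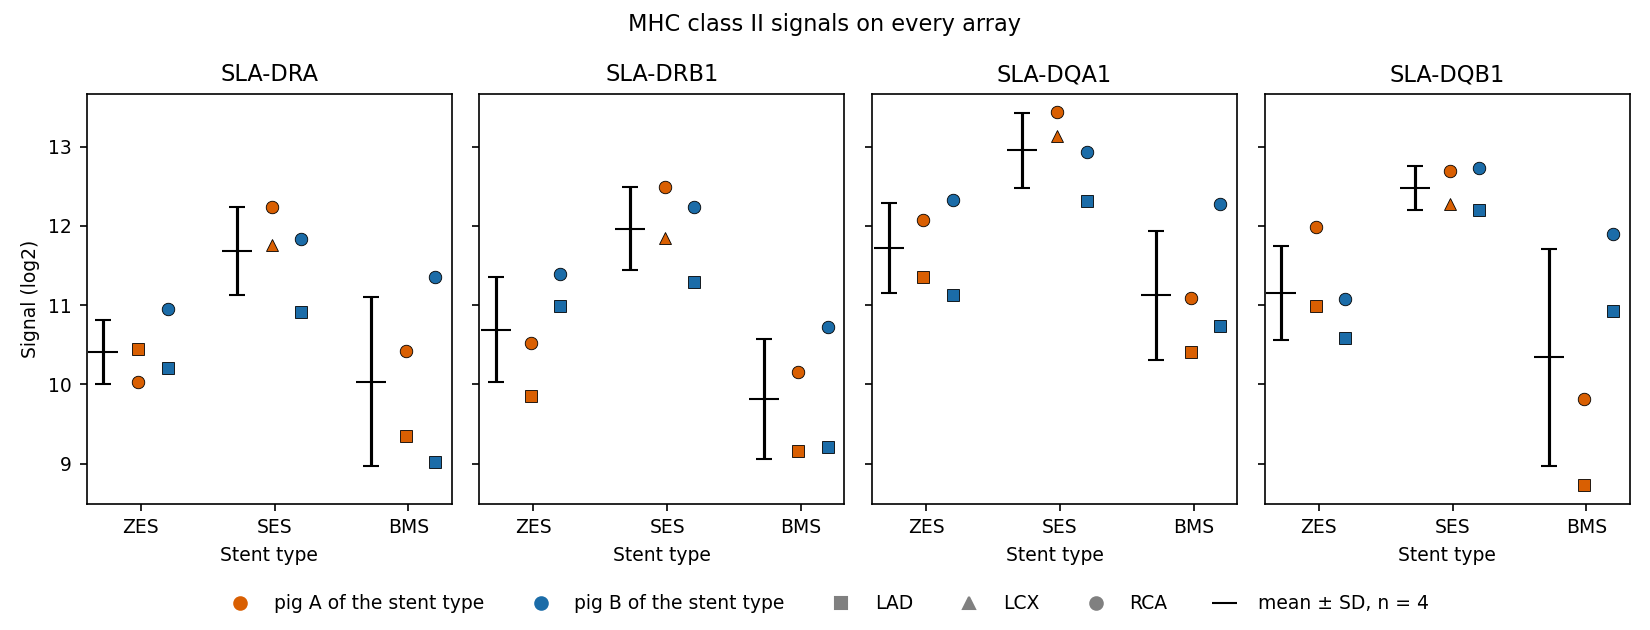
The log2 signal (y axis) of each class II gene is plotted for the 4 arrays of ZES, SES and BMS (x axis), with circles for RCA, squares for LAD, a triangle for LCX, colour for pig A or B, and bars for the mean and SD. The SES arrays stand above all BMS arrays for SLA-DRB1, SLA-DQA1 and SLA-DQB1, and for SLA-DRA BMS 3, at 11.36, lies above SES 4, at 10.91.

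SLA-DRA encodes the DR alpha chain, which pairs with every DR beta chain. Its signal was 10.03, 10.45, 10.95 and 10.21 on ZES 1 to 4, 11.76, 12.24, 11.83 and 10.91 on SES 1 to 4, and 10.42, 9.35, 11.36 and 9.02 on BMS 1 to 4. The SES and BMS groups overlapped through a single pair, since BMS 3 was above SES 4 and the other 15 of 16 pairings had SES higher. The means were 10.41 ± 0.40 with ZES, 11.68 ± 0.56 with SES and 10.04 ± 1.06 with BMS (SD, n = 4 arrays each). The difference of SES minus BMS was 1.65 ± 0.44 (SE), a 3.13-fold higher level, and did not pass after Benjamini-Hochberg adjustment over 16799 probe sets in limma (adjusted p = 0.0873).

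SLA-DRB1 encodes the DR beta chain, the variable partner of the DR molecule. Its signal was 10.52, 9.85, 11.40 and 10.99 on ZES 1 to 4, 11.85, 12.49, 12.23 and 11.29 on SES 1 to 4, and 10.15, 9.16, 10.73 and 9.22 on BMS 1 to 4. Every SES array was above every BMS array, with a gap of 0.56 between the lowest SES and the highest BMS value. The means were 10.69 ± 0.66 with ZES, 11.97 ± 0.52 with SES and 9.81 ± 0.76 with BMS (SD, n = 4 each). The difference of SES minus BMS was 2.15 ± 0.41 (SE), with a 95% interval of 1.29 to 3.01, and passed the threshold (limma, adjusted p = 0.0255). The call was lost when BMS 2, SES 1, SES 2 or SES 3 was left out, with adjusted p-values from 0.0638 to 0.138, while the difference stayed positive.

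SLA-DQA1 encodes the DQ alpha chain. Its signal was 12.08, 11.35, 12.32 and 11.13 on ZES 1 to 4, 13.13, 13.43, 12.94 and 12.31 on SES 1 to 4, and 11.09, 10.41, 12.27 and 10.73 on BMS 1 to 4. Every SES array was again above every BMS array, but by only 0.038 between SES 4 and BMS 3. The means were 11.72 ± 0.57 with ZES, 12.95 ± 0.48 with SES and 11.12 ± 0.81 with BMS (SD, n = 4 each). The difference of SES minus BMS was 1.83 ± 0.39 (SE), with a 95% interval of 1.01 to 2.64 (limma, adjusted p = 0.0388). This call was lost on leaving out any 1 of BMS 1, BMS 2, BMS 4, SES 1, SES 2, SES 3 and ZES 2, with adjusted p-values from 0.0585 to 0.158.

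SLA-DQB1 encodes the DQ beta chain. Its signal was 11.99, 10.98, 11.07 and 10.58 on ZES 1 to 4, 12.27, 12.69, 12.73 and 12.20 on SES 1 to 4, and 9.81, 8.73, 11.89 and 10.93 on BMS 1 to 4. The SES arrays lay within 0.53 of each other and above all arrays of the other 2 types, whereas the BMS arrays spanned over 3 log2 units. The means were 11.16 ± 0.59 with ZES, 12.47 ± 0.27 with SES and 10.34 ± 1.37 with BMS (SD, n = 4 each). The difference of SES minus BMS was 2.13 ± 0.50 (SE), a 4.39-fold higher level close to that of SLA-DRB1, and with more spread it did not pass (limma, adjusted p = 0.0578). The fit used a correlation within pigs of -0.032 for all probe sets, where that of SLA-DQB1 itself was 0.68. With means per pig its adjusted p was 0.141 (limma).

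Of the 4 genes, 2 were therefore called for SES against BMS, where 0.679% of all probe sets tested were called in either direction and 0.494% as higher. In 3 of the 4 genes every SES array exceeded every BMS array, which held for 4.23% of all probe sets. The median difference of the 4 genes was 1.98, against a median of -0.020 over all 16799 probe sets. The 4 genes were not independent of each other, since they were read from the same arrays. Levels in whole tissue do not separate more RNA per cell from more cells that carry these genes. With a covariate for the spike-in level, the differences of SES minus BMS were 1.71 for SLA-DRA, 2.48 for SLA-DRB1, 1.59 for SLA-DQA1 and 2.08 for SLA-DQB1, and none of the 4 passed (limma, adjusted p-values from 0.676 to 0.793). With the GAPDH difference as the covariate they were 0.49, 1.59, 1.39 and 2.58 in the same order of genes, and none passed (limma, adjusted p-values from 0.763 to 0.925). Both covariates separate SES from BMS arrays completely, so they and the stent type cannot be told apart on these arrays.

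For ZES against BMS, all 4 differences were positive and none was called, nor was any other of the 16799 probe sets (0% called by limma, with 1510 at an unadjusted p under 0.05). SLA-DRB1 differed by 0.87 ± 0.41 (SE, 95% interval 0.02 to 1.73, limma adjusted p = 0.545) and SLA-DQB1 by 0.82 ± 0.50 (-0.24 to 1.87, adjusted p = 0.653). SLA-DQA1 differed by 0.60 ± 0.39 (-0.22 to 1.41, adjusted p = 0.675) and SLA-DRA by 0.37 ± 0.44 (-0.55 to 1.30, adjusted p = 0.840). The intervals thus leave room for a doubling or more with ZES in each gene. The arrays of the 2 types overlapped in every gene, with ZES above BMS in 13 of 16 pairings for SLA-DRB1 and SLA-DQA1, 12 for SLA-DQB1 and 10 for SLA-DRA.

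The 2 drug-eluting stents were compared directly at the same day, with doses that are not known here. All 4 genes were lower with ZES than with SES by a similar amount. The differences were -1.27 ± 0.44 (SE) for SLA-DRA, -1.28 ± 0.41 for SLA-DRB1, -1.23 ± 0.39 for SLA-DQA1 and -1.32 ± 0.50 for SLA-DQB1, that is 2.35-fold to 2.49-fold lower. Each had an unadjusted p under 0.05, as had 1686 of all probe sets (10.04%), but the limma adjusted p-values of 0.305, 0.259, 0.253 and 0.372 did not pass. In this comparison 0.0714% of all probe sets were called. The 95% intervals, from -2.20 to -0.35, -2.14 to -0.42, -2.05 to -0.42 and -2.38 to -0.26, lie below 0, so the missing calls do not show that the 2 stents act alike. Every ZES array was below every SES array for SLA-DQB1, which was so for 3.06% of all probe sets, and 1 of 16 pairings went the other way in each of the other 3 genes. The comparisons share arrays: the SES arrays enter this difference and the one against BMS. An F test of all 3 types gave adjusted p-values of 0.154 for SLA-DRA, 0.0574 for SLA-DRB1, 0.0822 for SLA-DQA1 and 0.118 for SLA-DQB1 (limma), with 0.345% of all probe sets called.

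**Figure D2:**
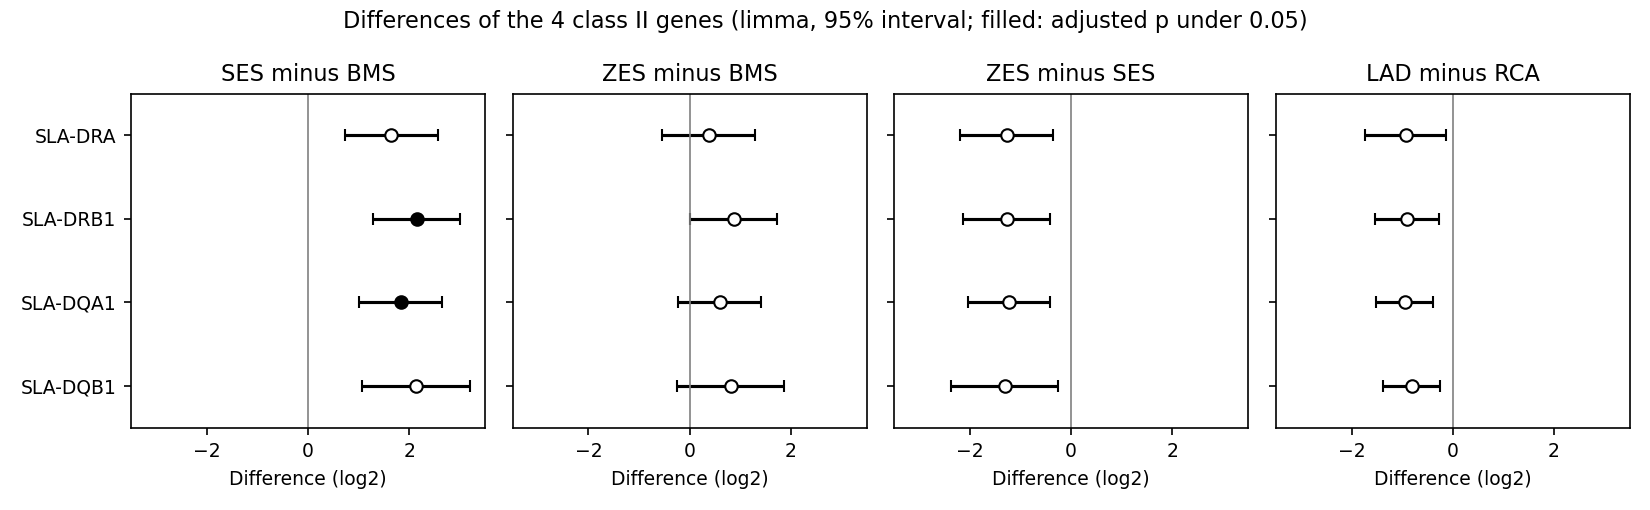
The difference in log2 signal (x axis) with its 95% interval is drawn for the 4 class II genes (y axis) in the 3 comparisons of stents and in LAD minus RCA, with filled points for adjusted p under 0.05. The filled points are SLA-DRB1 and SLA-DQA1 for SES minus BMS, and the ZES minus SES and LAD minus RCA points all lie left of 0.

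Within pigs, the signals of the 4 class II genes were mostly lower in the LAD than in the RCA, though no difference passed. The 4 genes in 5 pigs give 20 differences, and the LAD was the lower artery in 19 of them. The mean differences of LAD minus RCA were -0.93 ± 0.37 (SE) for SLA-DRA, -0.91 ± 0.29 for SLA-DRB1, -0.95 ± 0.26 for SLA-DQA1 and -0.82 ± 0.26 for SLA-DQB1 (n = 5 pigs). None passed over all probe sets (limma, adjusted p = 0.722 for SLA-DRA and 0.721 for each of the other 3), and 0% of all probe sets did, with 1153 at an unadjusted p under 0.05. The unadjusted p-values of the 4 genes were 0.0266, 0.00816, 0.00334 and 0.0091. SLA-DRB1, SLA-DQA1 and SLA-DQB1 were lower in the LAD in all 5 pigs, a pattern that 3.77% of all probe sets showed. The 3 kept probe sets annotated to SLA-DRB1 and another DR beta gene, described at the end, showed no such clear drop, with differences of -0.49, -0.22 and 0.21.

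The exception was SLA-DRA in ZES pig A, with 10.45 in the LAD and 10.03 in the RCA. The largest drop of SLA-DRA was in BMS pig B, with 9.02 in the LAD and 11.36 in the RCA. Averaged over the 4 genes, LAD minus RCA was -0.50 and -0.71 in the 2 ZES pigs, -0.76 in SES pig B, and -0.95 and -1.59 in the 2 BMS pigs. This mean was thus below 0 in every pig with a LAD segment, and furthest below 0 in the BMS pigs. SES pig B is the only SES pig among them, and no gene had passed for LAD minus RCA. Whether the artery difference differs between stent types was not tested. In SES pig A all 4 genes were lower in the LCX than in the RCA, with a mean difference of -0.46.

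**Figure D3:**
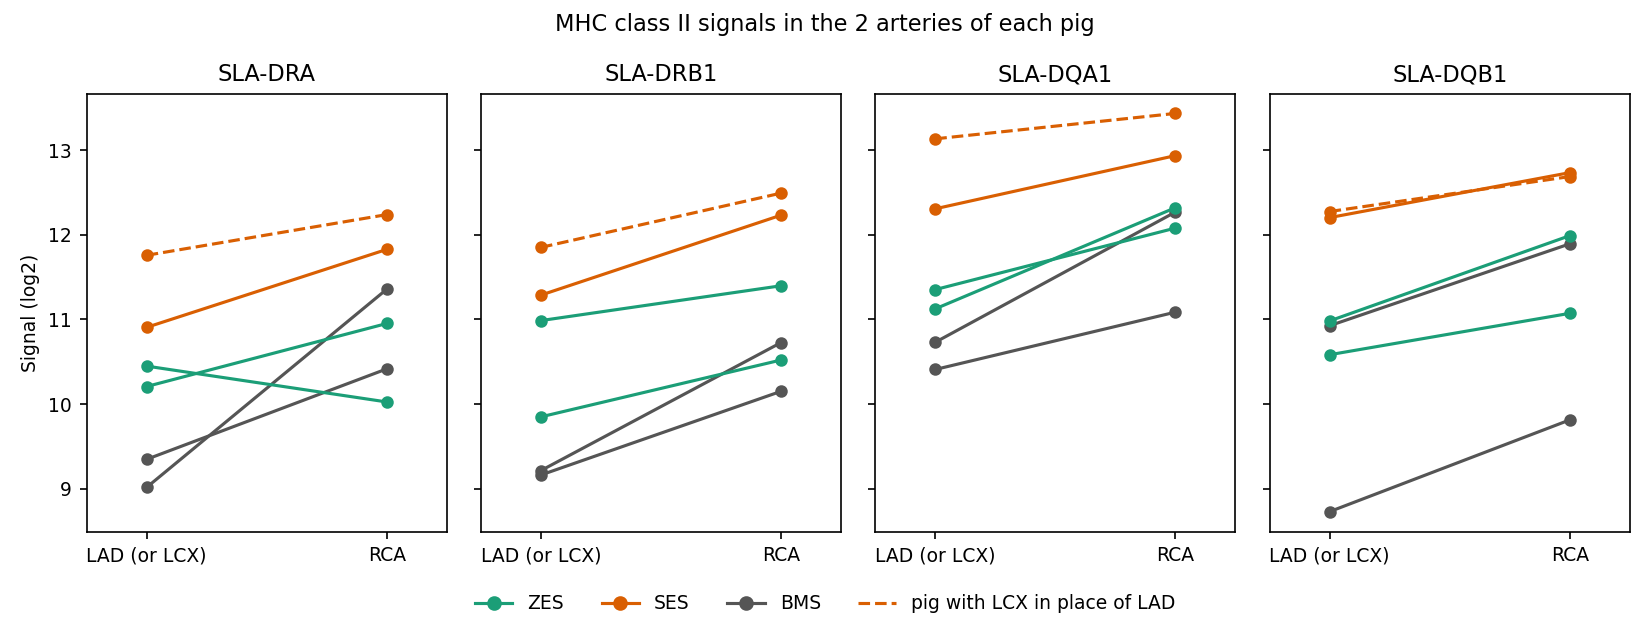
Lines join the log2 signals (y axis) of the 2 segments of each pig, LAD or LCX on the left and RCA on the right (x axis), coloured by stent type, with a dashed line for the SES pig with LCX. All lines climb to the right except that of SLA-DRA in ZES pig A, with 10.45 in the LAD and 10.03 in the RCA.

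Artery by artery, the SES arrays were highest in all 4 genes. The share of all probe sets with this order was not counted, and the LAD holds a single SES array. Among RCA arrays SLA-DRA read 10.03 and 10.95 with ZES, 12.24 and 11.83 with SES, and 10.42 and 11.36 with BMS. Among LAD arrays it read 10.45 and 10.21 with ZES, 10.91 in the single SES segment, and 9.35 and 9.02 with BMS. The overlap of SES and BMS in SLA-DRA was therefore one between arteries, a BMS RCA segment above a SES LAD segment. A fit with the artery as a covariate was chosen after the data were seen. In it the differences of SES minus BMS were 2.03 for SLA-DRB1 and 1.60 for SLA-DQA1, and neither passed (limma, adjusted p = 0.0703 and 0.0836). Their unadjusted p-values in limma were 5.75e-05 and 0.000154, against 6.07e-05 and 0.000196 without the covariate. Over all probe sets 7 were called with the covariate and 114 without it.

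Markers of other cell types were compared between the arteries in the same way, and none passed on its own. Of 11 smooth muscle contractile markers tested, all 11 had a positive LAD minus RCA difference (median 1.10), as had all 9 cardiomyocyte markers (median 1.75), while 9 of 10 monocyte and macrophage markers had a negative one (median -0.41); over all probe sets the median was 0.051. The mean of the cardiomyocyte markers ranged from 6.67 to 8.92 in the LAD and from 5.03 to 7.54 in the RCA, and that of the smooth muscle markers from 12.57 to 13.91 in the LAD and from 10.49 to 13.47 in the RCA. Within pigs the mean of either list was higher in the LAD in 4 of 5 pigs. The lowest LAD minus RCA difference was -0.87 for the cardiomyocyte list and -0.040 for the smooth muscle list. Of the cardiomyocyte markers only TNNC1 and PLN were above background on all 12 arrays, and CKM was so on 4. On BMS 3 that list's mean of 5.03 lay under the array's background of 5.35. The part of these markers in the class II difference was not tested.

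The chains of the class II molecules followed each other across the arrays, SLA-DQB1 less closely than the rest. Across the 12 arrays Pearson's r was 0.91 between SLA-DRA and SLA-DRB1, 0.92 between SLA-DRA and SLA-DQA1, and 0.92 between SLA-DRB1 and SLA-DQA1. For SLA-DQB1 it was 0.89 with its partner SLA-DQA1, 0.78 with SLA-DRB1 and 0.74 with SLA-DRA. After each stent type's mean was taken off, r was 0.83 for the DR pair, 0.72 for the DQ pair, 0.43 between SLA-DQB1 and SLA-DRA, and 0.41 between SLA-DQB1 and SLA-DRB1. These are descriptions of 12 arrays from 6 pigs that share RNA and hybridisation between genes.

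The looser fit of SLA-DQB1 came with a large step between the 2 BMS pigs. Its mean was 9.27 in BMS pig A and 11.41 in BMS pig B, a gap of 2.14, where the same pigs differed by 0.31 in SLA-DRA, 0.31 in SLA-DRB1 and 0.75 in SLA-DQA1. The SES pigs, at 12.48 and 12.47, and the ZES pigs, at 11.49 and 10.83, were nearer to each other. In SLA-DQB1 the SD between pig means of a stent type was 0.91 and that between the 2 segments of a pig 0.56. In SLA-DRA the pair of values was 0.32 and 0.84, in SLA-DRB1 0.46 and 0.66, and in SLA-DQA1 0.41 and 0.66. The ratio of the first SD to the second was 1.62 in SLA-DQB1, at percentile 94.9 of all probe sets, 0.70 in SLA-DRB1 (percentile 51.5), 0.62 in SLA-DQA1 (41.5) and 0.38 in SLA-DRA (14.5). The ratios of SLA-DRB1 and SLA-DQA1 were thus close to that of a typical probe set. SLA-DRB1 had its widest gap between the ZES pigs, at 10.19 and 11.19.

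**Figure D4:**
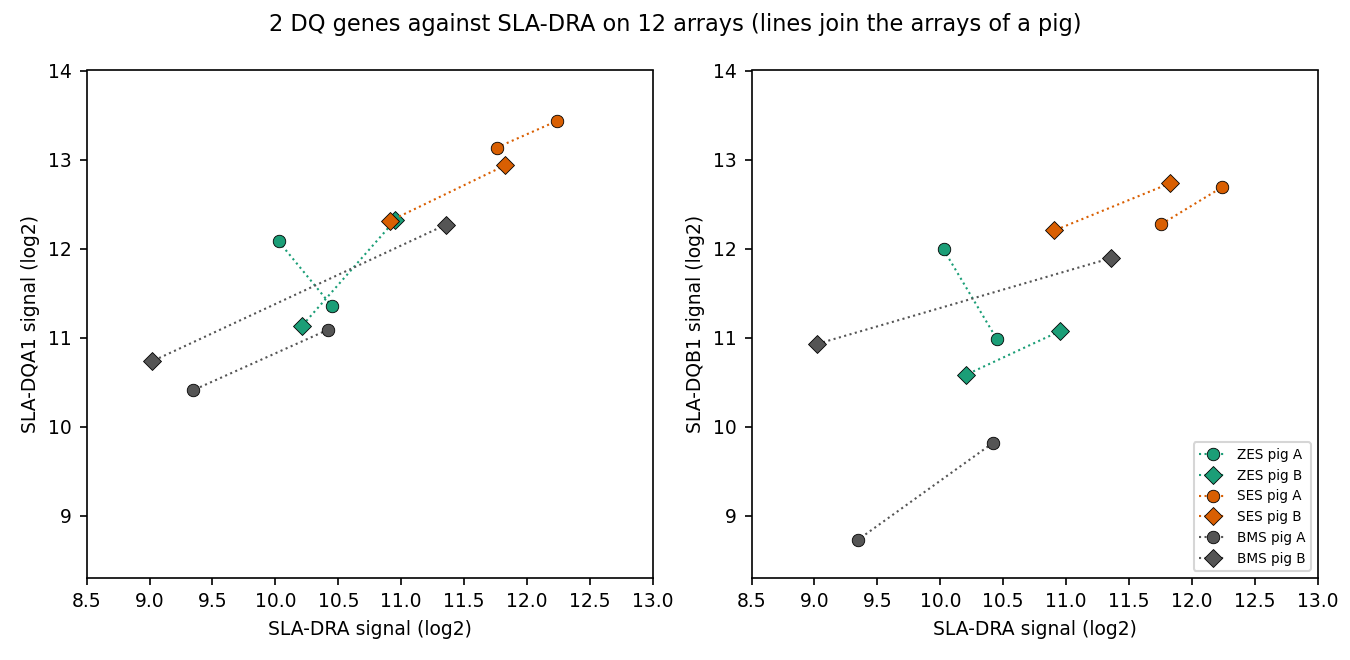
The log2 signals of SLA-DQA1 and SLA-DQB1 (y axes) are plotted against that of SLA-DRA (x axis) for the 12 arrays, coloured by stent type, with lines joining the arrays of a pig. SLA-DQA1 climbs with SLA-DRA (r = 0.92), while in SLA-DQB1 the 2 BMS pigs lie apart, with means of 9.27 and 11.41.

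Not all SLA-DRB1 probe sets carried a usable signal. The 2 that were removed had means of 3.13 and 2.24 over all arrays. They were above the arrays' background on 2 and 1 of 12 arrays, and were listed at 0 on 1 and 2 arrays. They therefore give no level of SLA-DRB1 in any stent group. DR beta genes are near copies of each other, and in RefSeq's pig genome (Sscrofa11.1, used here for names and neighbours alone) a gene named LOC106504372 bears the synonyms DRB1 and SLA-DRB. Its probe set had the highest correlation with the 4 class II genes of all named genes over the 12 arrays (r = 0.94) and ranked 32 with each stent type's mean taken off (0.84). It is not known how much RNA of 1 copy binds the probes of the other. The value given for SLA-DRB1 is uncertain to that extent. In that annotation the 4 genes stand in the order SLA-DRA, SLA-DRB1, SLA-DQA1 and SLA-DQB1, with the pseudogenes SLA-DRB4 and SLA-DQB2 between them.

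The genes that serve class II molecules were tested from a list of 22, of which 17 were measured. For SES against BMS 0 of the 17 rose and 0 fell, 10 had a positive difference and the median was 0.24. CD74, the invariant chain that escorts new class II molecules, read 10.41, 11.02, 10.10 and 10.41 on ZES 1 to 4, 10.44, 10.84, 10.36 and 10.27 on SES 1 to 4, and 10.48, 8.95, 11.26 and 8.60 on BMS 1 to 4. The BMS arrays of CD74 were split by artery, high in the RCA and low in the LAD. All ZES and SES arrays lay above the BMS LAD arrays, and they overlapped the BMS RCA arrays. Its difference of SES minus BMS was 0.65 ± 0.46 (SE, limma adjusted p = 0.546). For CIITA, the activator of class II genes, it was 0.62 ± 0.47 (adjusted p = 0.573).

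The 3 partners with the smallest adjusted p were CTSD, IFI30 and SLA-DMA. CTSD, the protease cathepsin D, differed by -1.38 ± 0.45 (SE, limma adjusted p = 0.161), with 7.13, 7.75, 7.50 and 9.45 on SES 1 to 4 and 8.79 to 9.80 on the BMS arrays. IFI30, a lysosomal reductase that prepares antigens, differed by 0.85 ± 0.34 (adjusted p = 0.255). SLA-DMA, a chain of the molecule that loads peptides onto class II, differed by 0.70 ± 0.34 (adjusted p = 0.359), and its other chain SLA-DMB by -0.29 ± 0.42 (adjusted p = 0.797). SLA-DMA differed by -0.84 ± 0.34 for ZES minus SES (adjusted p = 0.406). In ZES minus BMS 0 of the 17 partners were called, with a median of 0.087, and in ZES minus SES also 0, with a median of -0.040.

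In LAD minus RCA 13 of the 17 partners were negative, with a median of -0.46, and 0 were called. The largest were CD40, a co-stimulating receptor, at -1.19 ± 0.38 (SE, limma adjusted p = 0.721), and IFI30 at -0.98 ± 0.23 (adjusted p = 0.721); both were chosen after their values were seen. CD74 differed by -0.67 ± 0.45 (adjusted p = 0.776).

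**Figure D5:**
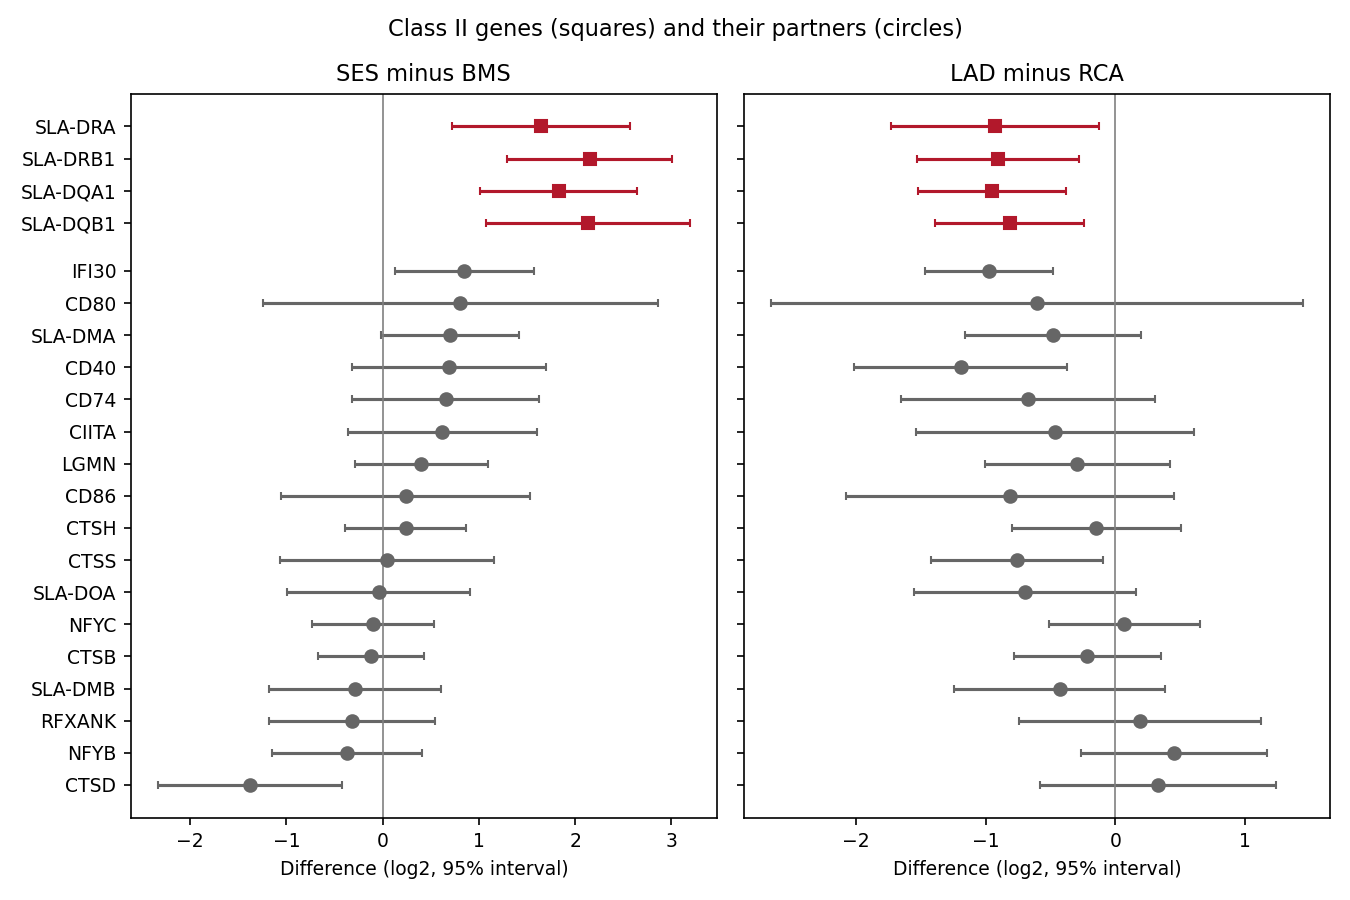
Differences in log2 signal with 95% intervals (x axes) are drawn for the 4 class II genes (squares) and their 17 measured partners (circles), down the y axis, for SES minus BMS and for LAD minus RCA. In SES minus BMS the squares lie between 1.65 and 2.15 and CTSD lowest, at -1.38; in LAD minus RCA 13 of 17 circles and all squares are left of 0.

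Class I presentation, the parallel route for peptides made inside the cell, had 0 of 15 genes called in each stent comparison and a median of 0.29 for SES against BMS. B2M, the light chain of class I, differed by -0.83 ± 0.29 (SE, limma adjusted p = 0.190), PSME2, a proteasome activator subunit, by 0.70 ± 0.26 (adjusted p = 0.214) and SLA-6 by 0.70 ± 0.35 (adjusted p = 0.372). Of 11 genes of interferon gamma signalling and its targets, 0 were called and 9 were positive for SES against BMS, with a median of 0.67. GBP1, an induced GTPase, differed by 1.31 ± 0.46 (adjusted p = 0.186), the kinase JAK1 by 0.67 ± 0.26 (adjusted p = 0.230) and the transcription factor IRF1 by 1.22 ± 0.50 (adjusted p = 0.263). IFNG itself was above background on 3 of 4 ZES arrays, 4 of 4 SES arrays and 1 of 4 BMS arrays. Since most BMS arrays had a higher background, these counts do not compare the stent types on equal terms.

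Of 15 listed genes of the helper T cell side, 10 had a probe set and 5 passed the filter and were tested. For SES minus BMS 4 of these 5 had a positive difference and 1 a negative one, with a median of 2.04. On each BMS array only 2 or 3 of the 5 genes were above background. CD2 and IL2RG were above it on all arrays, CD3G on 9 and CD3E and LCK on 8. The median and the count of directions thus rest in part on BMS signals below background, and do not measure the size of a difference. CD3E, part of the complex that signals for the T cell receptor, was the only 1 to pass for SES against BMS. It read 6.97, 6.73, 7.54 and 5.60 on ZES 1 to 4, 7.66, 7.24, 7.72 and 7.87 on SES 1 to 4, and 3.39, 2.19, 0.50 and 4.83 on BMS 1 to 4. Every ZES and SES array was above background and no BMS array was, so the fold is a bound: CD3E was at least 4.33-fold higher with SES than with BMS (limma, adjusted p = 0.0172) and at least 2.29-fold higher with ZES than with BMS (adjusted p = 0.256). The dim group's mean in this bound took the background in place of the signal on each array where it was higher. The adjusted p-values use the BMS signals as given, which lie below background, so they do not measure the size of the difference. CD3E also passed the filter on its mean over all arrays through the ZES and SES signals. IL2RG, the common chain of several interleukin receptors, differed by 1.72 ± 0.43 (adjusted p = 0.0722).

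Markers of monocytes and macrophages, of dendritic cells, and of B and plasma cells gave no call. Of 10 monocyte and macrophage markers 0 passed for SES against BMS, 4 were positive and the median was -0.17; their mean signal ran from 10.50 to 10.90 with ZES, from 10.38 to 11.37 with SES and from 10.19 to 11.57 with BMS. MRC1, the mannose receptor, differed by 2.09 ± 0.68 (SE, limma adjusted p = 0.157), FCER1G by -0.79 ± 0.31 (adjusted p = 0.245) and CD14 by 0.90 ± 0.40 (adjusted p = 0.308). Of 5 dendritic cell markers 4 were positive and 1 negative for SES against BMS, with a median of 0.34. CCR7 and XCR1 of that list were above background on only 6 and 7 of 12 arrays. FSCN1, an actin bundler of mature dendritic cells, differed by 2.37 ± 0.55 (SE, limma adjusted p = 0.0569). The dendritic list's mean signal ran from 6.64 to 7.996 with ZES, from 6.45 to 8.32 with SES and from 7.001 to 7.94 with BMS. The lowest SES array thus lay below every BMS array. The 3 measured B and plasma cell markers had 0 calls, with JCHAIN at 0.91 ± 0.71 (adjusted p = 0.583). CD79B of B cells was above background on 2 ZES arrays, 4 SES arrays and 1 BMS array, with the same limit from the higher background of most BMS arrays.

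No wall cell marker was called. All 11 smooth muscle markers had a negative difference of SES minus BMS (median -2.09, 0 called), and their mean signal was 10.04 to 12.76 with SES and 12.51 to 13.47 with BMS. Of the SES arrays only SES 4, at 12.76, lay within the BMS range. SES 4 was also the only LAD array with SES, and the SES array with the lowest SLA-DRA, SLA-DRB1, SLA-DQA1 and SLA-DQB1 signals. With ZES the mean of the smooth muscle list was 10.87 to 13.91. The lowest array, ZES 1, had the lowest SLA-DRA but the highest SLA-DQB1 signal of the ZES arrays. CNN1, SMTN and TPM2 of that list had adjusted p-values of 0.0804, 0.0804 and 0.0818 (limma). Of 11 endothelial markers 8 were positive with a median of 0.38, and of 9 cardiomyocyte markers 4 were positive with a median of -0.22; 0 were called in either list. The part of any of these in the class II result was not tested.

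The named genes most like the class II pattern were ranked by Pearson's r with the mean of the 4 scaled class II signals over the 12 arrays, among 5789 genes. The 8 highest were LOC106504372 (0.94), EML4 (0.93), GNPNAT1 (0.91), CORO1A (0.91), NSL1 (0.90), INPP5F (0.90), TP53RK (0.89) and WAPL (0.89). EML4, a microtubule-binding protein, was higher with SES by 1.36 over BMS (limma, adjusted p = 0.0287). CORO1A encodes coronin, an actin regulator of leukocytes, at a difference of 1.30 (adjusted p = 0.110). The ranking itself favours genes that are high with SES and low with BMS, so these differences are no separate evidence. With each stent type's mean taken off, the highest were CYSTM1 (0.94), ARID2 (0.93), SMAP2 (0.93) and SQOR (0.91), then TYROBP (0.91), an adaptor of myeloid receptors, with GRB2 (0.90), APH1A (0.90) and KIAA0930 (0.90). TYROBP ranked 1612 without that step, at r = 0.28, and differed by -0.28 ± 0.30 (SE) for SES minus BMS (limma, adjusted p = 0.71). The macrophage list had a median r of 0.24 over all arrays and 0.58 within stent types, and the smooth muscle list -0.76 and -0.45. All such correlations come from the same 12 arrays, share labelling and scaling, and carry no test.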

How the data were processed

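Total RNA of 12 stented coronary segments of 6 pigs was measured on porcine Affymetrix arrays. Per the submitters' processing notes, the authors made the deposited values, log2 signals, with Affymetrix Expression Console 5.0 and MAS5; that they are log2 was read from the values, whose trimmed mean on the linear scale is the same on all arrays. The sources used here do not say how values listed at 0 arose, and give no detection calls. The members and gene lists were chosen with earlier results of these data known.

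Of 24123 probe sets, 124 controls and then the 30% with the lowest mean were left out, which left 16799. Probe sets were named from the platform annotation where it gives 1 symbol (10099), and a gene with several was represented by that with the highest mean. No pseudocount or further normalization was used. R 4.3.3 with limma 3.58.1 and statmod 1.5.0 was used to compare stents over all 12 arrays, with the pig as a random block (consensus correlation -0.032) and a variance trend; LAD and RCA were compared on 10 arrays of 5 pigs with the pig as a fixed block. P-values are two-sided and adjusted by Benjamini-Hochberg over all 16799 probe sets and a threshold of 0.05. P-values treat the 2 segments of a pig as samples, and 2 pigs per stent type limit the precision. The background of an array was set at the 95th percentile over 59 controls whose sequences were not spiked in. Named genes were the class II probe sets, list members past the threshold or else the 3 with the smallest adjusted p for SES minus BMS, and the 8 genes most like the class II pattern; others are named as background or as chosen after their values were seen. The procedure was tested on simulated arrays. Alternatives covered the pig block, variance model, scaling, filter, pseudocount, covariates, array weights and each array or pig left out; 4 more, on the artery, arrays of high 28S signal, the arrays in the model and the LCX segment, were chosen after the data were seen.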

Additional observations from a re-analysis of the deposited data

Results flagged for a closer look

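Outside the 6 probe sets described, 4 others are annotated to DR beta genes, 3 to both LOC106504372 and SLA-DRB1 and 1 to LOC106504372 alone. In 3 of the 4 every SES array stood above every BMS array, which held for 4.23% of all probe sets. They were flagged by that pattern, so it is no separate evidence for the class II result. Of the 3 shared probe sets, the one whose name ends in A1_x_at averaged 7.73 on SES arrays, against 4.69 on BMS arrays, a difference of 3.05 ± 0.92 (SE, limma adjusted p = 0.127). The other 2 end in S1_x_at. The brighter of them averaged 9.01 on SES arrays, against 5.95 on BMS arrays, a difference of 3.05 ± 0.61 (adjusted p = 0.0290). On ZES arrays it averaged 8.35, with 7.18 and 7.20 in ZES pig A and 9.60 and 9.43 in ZES pig B. Its difference of ZES minus BMS was 2.40 ± 0.61 (adjusted p = 0.360). In the dimmer of them the SES and BMS arrays overlapped, with a difference of SES minus BMS of 2.12 ± 1.03 (adjusted p = 0.361) and of ZES minus BMS of -0.61 ± 1.03 (adjusted p = 0.902). The probe set of LOC106504372 alone averaged 12.23 on SES arrays, against 10.68 on BMS arrays, a difference of 1.55 ± 0.38 (adjusted p = 0.0666). Its difference of LAD minus RCA was -0.70 ± 0.26 (SE, limma adjusted p = 0.721). That of the A1_x_at probe set was -0.49 ± 0.70 (adjusted p = 0.904). The brighter S1_x_at probe set differed by 0.21 ± 0.48 (adjusted p = 0.947) and the dimmer by -0.22 ± 1.03 (adjusted p = 0.974). The x in the first 3 names marks, on these arrays, probes that can bind RNA of other genes, so which DR beta copy was measured is not known.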

How the results depend on the processing

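For SES against BMS 2 class II genes passed as reported, and the differences ranged over the alternatives from 0.49 to 2.08 for SLA-DRA, 1.59 to 2.48 for SLA-DRB1, 1.39 to 2.21 for SLA-DQA1 and 1.07 to 3.20 for SLA-DQB1. Of 436 recomputed differences 395 kept their direction and their side of the threshold, 28 lost and 11 gained a call, and 2 changed sign. The count of calls for SES against BMS was 1 with means per pig, with median centring and without SES pig B. It was 0 without a variance trend, with the spike-in level or the GAPDH difference as a covariate, without BMS pig A or SES pig A, and, in settings chosen after the data were seen, with the artery as a covariate or without the 2 arrays of high 28S signal. It was 4 with array weights and without BMS pig B, and from 0 to 4 with single arrays left out, 4 without BMS 3 or SES 4. The calls over all probe sets moved as well. They were 114 as reported, 673 with array weights, 405 without BMS pig B, 76 without BMS 3 and 415 without SES 4. They were 69 without BMS pig A, 1 without SES pig A, 7 with the artery and 0 with the spike-in or GAPDH covariate. The class II counts are thus not particular to these 4 genes. Without BMS pig A, SLA-DQB1 differed by 1.07 for SES against BMS, against 3.20 without BMS pig B. The F test, which called 0 class II genes, called 4 with array weights or without BMS pig B. It called 1 with the pseudocount of 32 on the linear scale, with no filter, or without ZES pig A or ZES pig B. With single arrays left out it called 0 to 3. Over all probe sets it called 58 as reported, 625 with array weights and 314 without BMS pig B. No class II gene was called for ZES against BMS, ZES against SES or LAD against RCA in any alternative run. ZES minus BMS changed sign for SLA-DQB1 without BMS pig A (-0.25, adjusted p = 0.858) and for SLA-DRA with the GAPDH covariate (-0.024, adjusted p = 0.999); the cause was not tested. Median centring raised SES minus BMS by 0.19 and ZES minus BMS by 0.16 for all probe sets. The mean over all probe sets of SLA-DRB1 gave no value, since it falls under the filter. Signal over background limits the 2 removed SLA-DRB1 probe sets and CD3E on BMS arrays, but not these alone. It also limits the list genes that were above background on only some arrays. Among them are CD3G, LCK, IFNG, CD79B, CCR7, XCR1, EGFL7 and most cardiomyocyte markers. The 3 probe sets shared by SLA-DRB1 and LOC106504372 were above background on 10, 10 and 11 arrays.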
